A study of Arabidopsis thaliana with 6 samples.

Results

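The genes described here are 115 heat shock protein and HSP20-like genes of Arabidopsis thaliana, out of 32678 gene models in the deposited table. They were chosen by their short annotation in that table, which had to hold "heat shock" or "HSP20-like" and not "transcription factor". No measured value enters this rule, but the genes and lists were chosen with earlier results of these data known. By the same annotation and a list of gene identifiers the 115 genes fall into 19 small heat shock proteins (small HSPs), 23 other HSP20-like genes, 16 HSP70 genes, 5 HSP90 genes, 1 HSP100 gene, 3 HSP60 genes, 43 DNAJ genes and 5 others. The 5 others are HSP91, the heat shock factor binding protein gene HSBP and the heat shock factor genes HSF1, HSF3 and HSF4, whose annotation lacks the excluded words.

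RNA was sequenced from 3 libraries of non-green seeds and 3 of green seeds that segregate in siliques of a chlorophyll synthase mutant. Non-green seeds carry the genotype label Atchlsyn1-1 and the tissue label yellow seeds, although their titles also hold the word photosynthetic. Green seeds carry the label Atchlsyn1-1/CHLSYN, so the mutant allele is named in both groups. The growth conditions named for both groups were 22 °C and a day of 16 h light and 8 h dark, and no heat treatment is named. The labels state neither seed age nor how many plants a library came from nor where the replicates came from, so p-values measure the spread between these libraries, which may be technical.

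Small HSPs are chaperones of the HSP20 family that bind unfolding proteins and keep them from clumping. HSP70 proteins, helped by DNAJ proteins, refold such clients with ATP, HSP100 proteins pull aggregates apart and HSP90 proteins mature signalling proteins. In Arabidopsis, several of these genes are switched on by heat and also, without heat, by the seed's own programme during maturation. Heat shock factors, the transcription factors that act on them, bind heat shock elements, which are inverted repeats of the bases GAA and TTC.

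Non-green seeds held more transcript of small HSPs than green seeds. Of 19 small HSP genes 14 had enough counts to test; 11 were called higher in non-green seeds, 0 were called lower and 3 were not called (edgeR quasi-likelihood test, Benjamini-Hochberg adjusted p under 0.05). The count of 0 lower genes was also 0 at an unadjusted p under 0.05 and 0 by DESeq2. HSP23.6-MITO, 1 of the 11, passed the filter on low counts only through the non-green libraries and so had to differ; without it 10 of 13 were higher, with a median log2 fold change of 1.17. The median of the 14 tested genes on this scale, non-green over green, was 1.20, against 0.065 for the 74 tested genes of the other heat shock classes and 0.001 for all 17239 genes tested. Over all genes tested 14.2% were called higher and 12.5% lower, and 2.4% were called higher with at least a 2-fold difference. In each of the 11 called genes all non-green libraries lay above all green ones, which held for 19.2% of all genes tested. Small HSPs together took 0.0530% ± 0.0015 of all counts in non-green libraries and 0.0211% ± 0.0003 in green ones (SD, n = 3 each), a ratio of 2.52. In bulk samples, fewer cells of a type and less RNA per cell cannot be told apart.

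Of 5 small HSP genes shown here as examples, all called higher, 4 hold a heat shock element in the stretch printed and 1 does not. In the full 300 bases before the transcript start, an element of 2 units stood in 5 of the 11 small HSPs called higher. It stood in 1 of the 3 tested and not called. The sequences are the bases just before the annotated transcript starts of the 5 genes shown. They are given 5′ to 3′ in the gene's own direction, from the RefSeq assembly TAIR10.1, with matches to the heat shock element in capitals. HSP17.4 (AT3G46230), whose annotated gene reaches a little into its window, and AT1G53540, for which the table gives HSP17.4 as best match, hold the element of 3 units (GAANNTTC extended by NNGAA). HSP17.6A (AT5G12030) and AT1G52560 hold elements of 2 units (GAANNTTC or TTCNNGAA). AT2G29500 has no match in its window and is shown as the contrast. The windows are chr3:16984842-16984981 (minus strand) for HSP17.4, chr1:19980159-19980298 (plus strand) for AT1G53540, chr5:3884839-3884948 (minus strand) for HSP17.6A, chr1:19575867-19576006 (minus strand) for AT1G52560 and chr2:12634121-12634260 (minus strand) for AT2G29500.
HSP17.4: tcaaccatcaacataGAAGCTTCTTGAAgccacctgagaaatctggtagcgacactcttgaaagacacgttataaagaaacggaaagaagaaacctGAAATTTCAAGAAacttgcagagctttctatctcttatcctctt
AT1G53540: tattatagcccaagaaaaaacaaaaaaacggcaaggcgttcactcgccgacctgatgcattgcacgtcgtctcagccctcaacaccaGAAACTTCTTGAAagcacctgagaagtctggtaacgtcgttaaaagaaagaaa
HSP17.6A: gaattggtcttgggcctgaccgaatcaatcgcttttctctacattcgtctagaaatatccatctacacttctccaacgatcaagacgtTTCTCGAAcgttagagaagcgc
AT1G52560: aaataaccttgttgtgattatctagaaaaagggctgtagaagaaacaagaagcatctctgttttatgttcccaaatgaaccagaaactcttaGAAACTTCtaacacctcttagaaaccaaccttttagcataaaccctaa
AT2G29500: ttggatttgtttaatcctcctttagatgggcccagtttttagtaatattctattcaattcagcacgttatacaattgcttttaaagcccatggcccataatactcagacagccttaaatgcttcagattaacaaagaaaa

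HSP17.4, a protein of class I, the family that per the table makes up most small HSPs of maturing seeds, was the most abundant of the class. It had 4005, 4442 and 4137 counts in the non-green libraries, against 1726, 1886 and 1880 in the green ones. Every non-green library lay above every green one. The difference was 2.17-fold, or 1.12 ± 0.04 on the log2 scale (SE, 3 libraries each, edgeR adjusted p = 2.24e-37). Per length, its RPKM was 348 ± 19.5 in non-green and 152 ± 6.25 in green seeds (SD, n = 3 each), rank 120 of all genes in non-green seeds and rank 305 in green seeds. The gene has 1 exon, at chr3:16984118-16984867 on the minus strand.

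HSP17.6A, a cytosolic protein with chaperone activity that the table records in late seed development and under heat and osmotic stress, had the larger difference of the 2 abundant genes. Its counts were 2417, 2374 and 2579 in the non-green libraries, against 815, 668 and 746 in the green ones. The groups did not overlap, and the difference was 1.65 ± 0.05 on the log2 scale (SE, edgeR adjusted p = 2.51e-43), or 3.13-fold. HSP17.6A made up 27.8% ± 1.37 of all small HSP counts in non-green and 21.2% ± 2.08 in green libraries, while HSP17.4 made up 47.5% ± 1.57 in non-green and 52.3% ± 2.48 in green ones (SD, n = 3 each). Without these 2 genes the rest of the class took 0.0131% of counts in non-green and 0.00558% in green libraries, a ratio of 2.35.

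Its neighbour on chromosome 5 is HSP17.6II (AT5G12020), a class II small HSP, with no other annotated gene between them. HSP17.6II was scarce, with 20, 21 and 9 counts in non-green and 3, 2 and 6 in green libraries. That was under the limit for testing. The ratio of the summed counts after scaling was 4.3, with a 95% interval of 2.21 to 9.16 that covers counting error only.

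**Figure D1:**
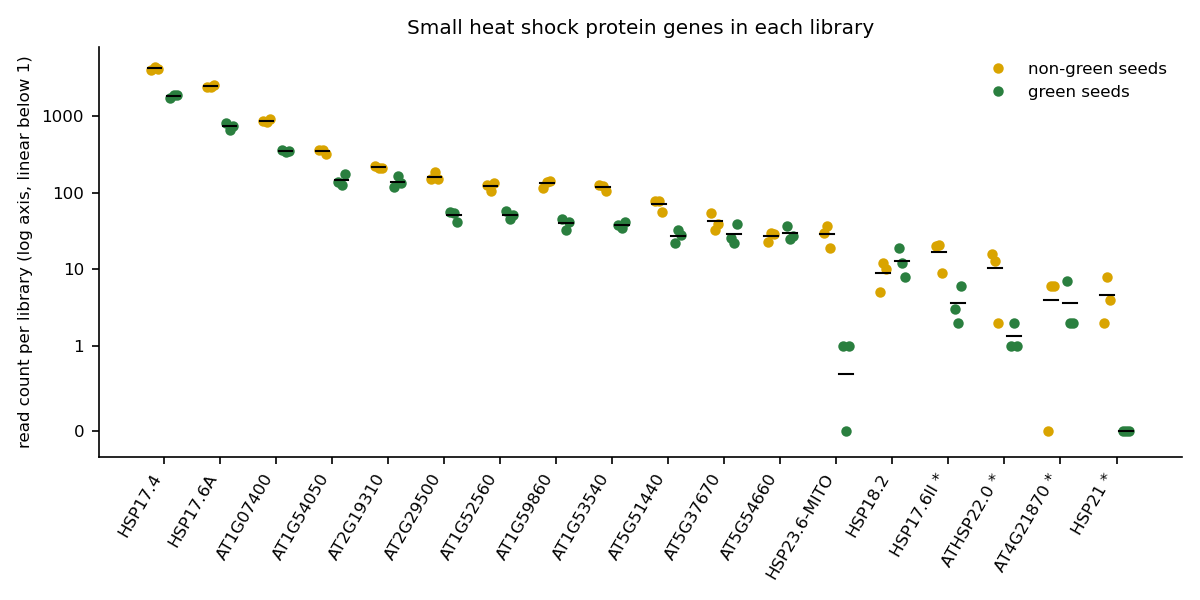
Read counts of the 18 small HSP genes with at least 1 read, 1 point per library (non-green seeds left of green seeds, black lines at group means), on an axis that is logarithmic above 1 count; an asterisk marks genes with too few counts to test. The 3 non-green libraries lie above the 3 green ones for HSP17.4, HSP17.6A and the other 9 genes called higher, while the groups overlap for AT5G37670, AT5G54660 and HSP18.2.

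The small HSPs without a name in the table had fewer counts than HSP17.4 and HSP17.6A. AT1G07400 had 855, 838 and 927 counts in non-green and 362, 339 and 356 in green libraries, a log2 fold change of 1.23 ± 0.07. AT2G29500 had 150, 184 and 151 in non-green and 56, 54 and 42 in green libraries, or 1.59 ± 0.17. AT1G59860 had 116, 140 and 143 in non-green and 46, 33 and 41 in green libraries, or 1.65 ± 0.19. These 3 genes, each of which has another of them as its best match in the table, did not overlap between the groups, and their edgeR adjusted p-values ran from 3.49e-26 to 1.93e-11. AT1G54050, closest to HSP17.6A in the table, had 357, 361 and 323 counts in non-green and 138, 126 and 174 in green libraries, or 1.17 ± 0.11. AT1G53540, closest to HSP17.4, had 127, 123 and 106 in non-green and 38, 35 and 41 in green libraries, or 1.56 ± 0.20. Both were again separated in every library. AT2G19310 had the smallest called difference, with 224, 210 and 213 counts in non-green and 118, 168 and 133 in green libraries, or 0.55 ± 0.13 (edgeR adjusted p = 0.000449).

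Small HSPs of organelles were among those called. AT1G52560, which the table places in mitochondria, had 126, 106 and 133 counts in non-green and 58, 45 and 52 in green libraries, a log2 fold change of 1.15 ± 0.19. AT5G51440, whose best match is the mitochondrial gene HSP23.6-MITO, had 78, 79 and 56 in non-green and 22, 33 and 28 in green libraries, or 1.27 ± 0.25. For both genes all non-green libraries were above all green ones. HSP23.6-MITO (AT4G25200), made for the mitochondrion, had 30, 37 and 19 counts in non-green and 1, 0 and 1 in green libraries. It was called (edgeR adjusted p = 2.72e-09) but passed the filter on low counts only through the non-green libraries, and the ratio of its summed counts was 40.7, with a 95% counting interval of 10.9 to 341. HSP21 (AT4G27670), the chloroplast small HSP, had 2, 8 and 4 counts in non-green libraries and 0 in all 3 green ones. With a floor of 3 counts over the green group the ratio of its summed counts was 4.41. This ratio takes the 14 non-green counts as exact, and the gene was too scarce to test. ATHSP22.0 (AT4G10250), placed in the endomembrane system, had 16, 13 and 2 counts in non-green and 1, 2 and 1 in green libraries, with overlap between the groups.

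The other 3 tested small HSPs were not called. AT5G37670 was at 0.46 ± 0.30 on the log2 scale (edgeR adjusted p = 0.270) and AT5G54660 at -0.20 ± 0.33 (0.723). HSP18.2 (AT5G59720), a cytosolic class I protein, had 5, 12 and 10 counts in non-green and 19, 12 and 8 in green libraries, or -0.60 ± 0.50 (edgeR adjusted p = 0.418). All 3 overlapped between the groups. AT4G21870 had 0, 6 and 6 counts in non-green and 7, 2 and 2 in green libraries, and AT5G47600 was listed at 0 in every library. Stretches of 50 coding bases shared with another of the 115 genes were searched as a measure of reads that could be exchanged, and none of the 19 small HSPs had 1.

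Among the 88 heat shock genes with enough counts to test, 30 (34.1%) were called higher and 10 (11.4%) lower in non-green seeds, with a median log2 fold change of 0.096. The other 27 were too scarce, and 6 of these were listed at 0 throughout. Outside the small HSPs, 19 of 74 tested genes were higher and 10 lower (25.7% and 13.5%), against 14.2% and 12.5% of all genes. The classes are compared here by counts and medians, and no test of one class against another was run.

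**Figure D2:**
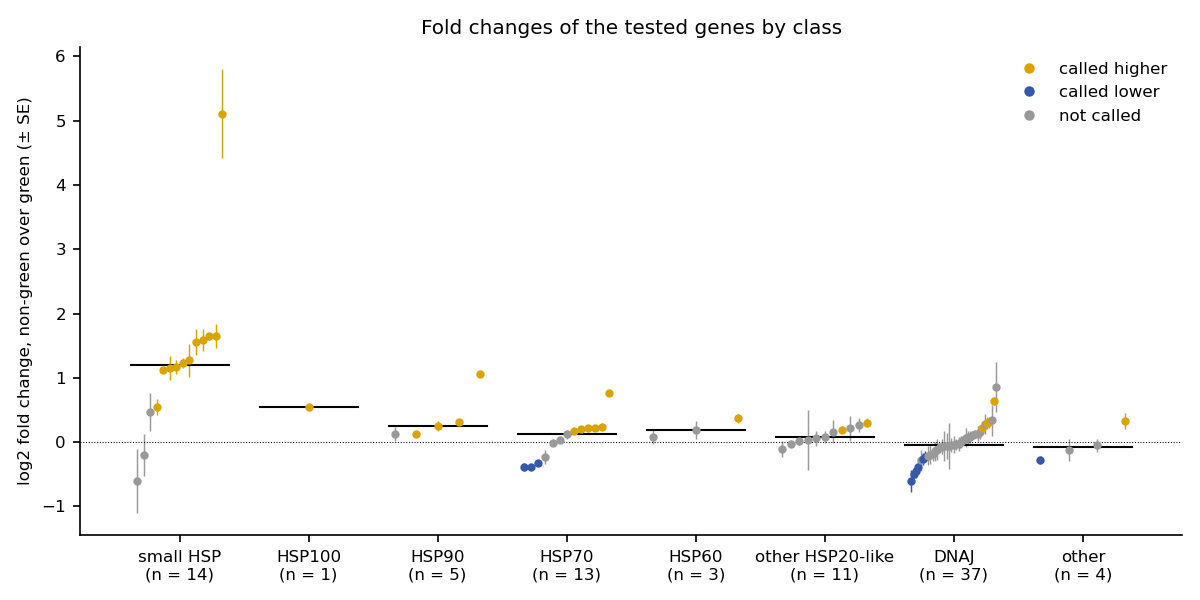
Log2 fold change, non-green over green, with its SE for each of the 88 tested genes, by class and ordered by value within a class, with black lines at class medians. Small HSPs have a median of 1.20, against 0.257 for HSP90, 0.121 for HSP70 and -0.04 for DNAJ genes; the point at 5.11 is HSP23.6-MITO, whose fitted value rests on 2 green reads and is no estimate of size.

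The HSP70 class went both ways, with 6 of 13 tested genes higher (46.2%), 3 lower (23.1%) and 4 not called. Over all genes tested the shares were 14.2% and 12.5%. The median log2 fold change of the class was 0.12. The gene named HSP70 (AT3G12580), a cytosolic member, had 21857, 21923 and 21861 counts in non-green libraries and 12011, 12083 and 12272 in green ones. The groups lay far apart relative to their spread, at 0.77 ± 0.03 on the log2 scale (edgeR adjusted p = 9.45e-35), or 1.71-fold. At an RPKM of 575 ± 2.88 in non-green and 320 ± 1.91 in green seeds (SD, n = 3 each) it was the most abundant of the 115 genes. It made up 42.3% of the HSP70 class counts in non-green and 30.0% in green libraries. The next cytosolic gene, HSC70-1 (AT5G02500), which is made without heat, differed less, with 8564, 8535 and 8722 counts in non-green and 6969, 6980 and 6927 in green libraries, or 0.23 ± 0.04 (edgeR adjusted p = 2.61e-07). Hsp70-2, Hsp70-15 and the chloroplast genes cpHsc70-1 and cpHsc70-2 were also called higher, at 0.24, 0.22, 0.20 and 0.18.

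BIP1 and BIP2, HSP70 genes of the endoplasmic reticulum (ER), were lower. BIP2 (AT5G42020), a luminal binding protein that folds proteins entering the ER, had 3453, 3352 and 3392 counts in non-green and 4324, 4161 and 4099 in green libraries, or -0.38 ± 0.04 on the log2 scale (edgeR adjusted p = 1.48e-13). BIP1 (AT5G28540), its close copy, had 4275, 4380 and 4079 in non-green and 5043, 4945 and 5059 in green libraries, or -0.32 ± 0.04. In both genes all non-green libraries lay below all green ones. BIP1 and BIP2 share 32.0% and 31.8% of their stretches of 50 coding bases, so reads may be exchanged between them. AT4G16660, another HSP70-type gene, was at -0.39 ± 0.06 (edgeR adjusted p = 2.87e-08). BIP3 had 10 counts in all non-green and 8 in all green libraries and was not tested. Of the HSP70 genes not called, AT3G09440 was at 0.04 ± 0.04 and Hsp70b at -0.01 ± 0.05.

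In the HSP90 class 4 of 5 genes (80%) were higher and 0 lower, against 14.2% and 12.5% of all genes tested. At an unadjusted p under 0.05 0 were lower, and 0 by DESeq2. With 5 genes, a count of 0 lower says little about the class. HSP90.1 (AT5G52640), the heat-inducible cytosolic member, had 3768, 3715 and 3655 counts in non-green and 1636, 1720 and 1706 in green libraries. Its groups did not overlap, and its difference of 1.06 ± 0.04 on the log2 scale (edgeR adjusted p = 6.32e-37) was of the size seen in small HSPs. The cytosolic genes HSP81-2 and HSP81-3 were at 0.32 ± 0.04 and 0.13 ± 0.04, and Hsp89.1, a mitochondrial member, at 0.26 ± 0.08. Hsp81.4 was not called (0.13 ± 0.11). HSP81-2 and HSP81-3 share 24.1% and 29.8% of their stretches of 50 coding bases with other members, so their own values are uncertain.

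HSP101 (AT1G74310), the HSP100 disaggregase that works with small HSPs, had 7466, 7811 and 7181 counts in non-green and 4810, 4729 and 4959 in green libraries. All non-green libraries were above all green ones, at 0.55 ± 0.04 on the log2 scale (edgeR adjusted p = 1.79e-22). HSP60, a mitochondrial chaperonin, was at 0.37 ± 0.07, and HSP60-2 and HSP60-3A were not called. HSBP, which restrains heat shock factors, was at 0.34 ± 0.12 (edgeR adjusted p = 0.0344), and this call was lost under 5 of 11 other settings. HSP91 (AT1G79930), which the table describes as a high-molecular-weight HSP70, was at -0.27 ± 0.06, while its adjacent relative Hsp70-15 was at 0.22 ± 0.04. These 2 share 13.7% and 14.7% of their stretches of 50 coding bases.

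**Figure D3:**
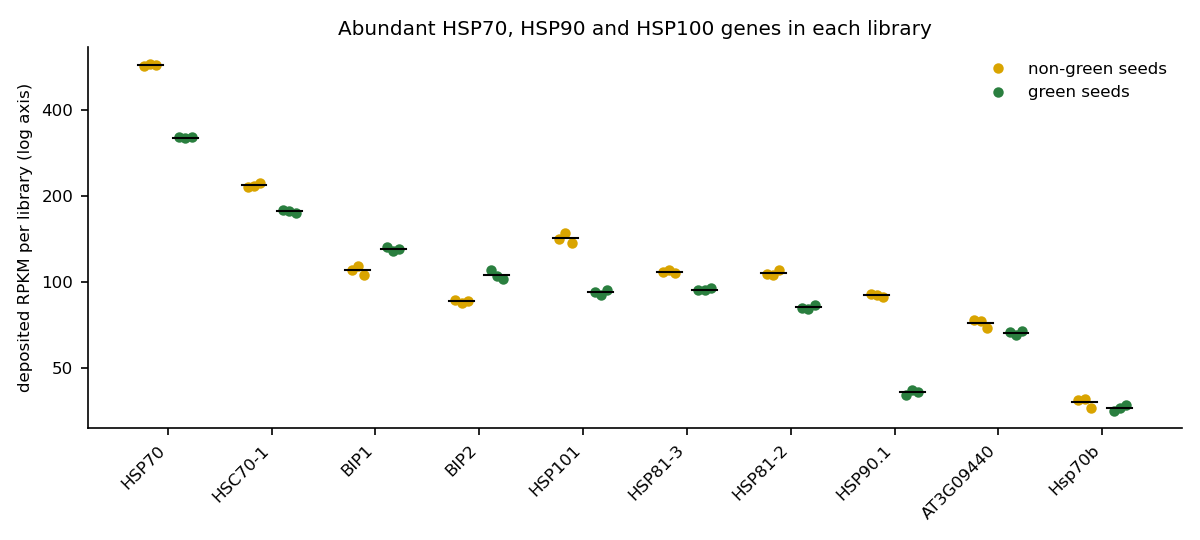
RPKM as deposited by the authors, on a log axis, for 8 abundant HSP70 and HSP90 genes, HSP101 and Hsp70b, with 1 point per library (non-green seeds left of green seeds) and black lines at group means. HSP70, HSP90.1 and HSP101 lie higher in all non-green libraries, BIP1 and BIP2 lie lower, and the groups of Hsp70b overlap.

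DNAJ genes, whose products hand clients to HSP70, differed little as a class, with 4 of 37 tested genes higher, 6 lower and 27 not called (6 higher and 4 lower with scaling by total counts), and a median log2 fold change of -0.04. The 10.8% higher and 16.2% lower stand beside 14.2% and 12.5% of all genes. AT2G20560 was the main exception, with 1307, 1235 and 1276 counts in non-green and 794, 747 and 775 in green libraries, clearly apart, at 0.64 ± 0.06 on the log2 scale (edgeR adjusted p = 5.54e-17). ATERDJ3B (AT3G62600), a DNAJ protein of the ER lumen that works with BiP, had the sign of BIP1 and BIP2, with 630, 616 and 643 counts in non-green and 809, 836 and 871 in green libraries, or -0.49 ± 0.06 (edgeR adjusted p = 5.02e-10). AT4G39150 was at -0.45 ± 0.11, and AT5G23240, placed in the chloroplast, at -0.60 ± 0.17. AT2G25560, AT1G74250 and AT1G65280 were lower by less. AT1G18700, AT5G01390 and ATERDJ3A were higher, at 0.31, 0.30 and 0.22. AT2G42750, the DNAJ gene with the highest mean RPKM over all libraries (AT2G20560 was higher in non-green seeds alone), was at 0.13 ± 0.06 and not called (edgeR adjusted p = 0.0807).

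The 23 other HSP20-like genes share the fold of small HSPs. Of 11 tested 2 (18.2%) were higher, against 14.2% of all genes, 0 were lower and 9 not called, with 0 lower at an unadjusted p under 0.05 and 0 by DESeq2. BOB1 (AT5G53400), a non-canonical small HSP needed for development, had 708, 662 and 592 counts in non-green and 499, 495 and 509 in green libraries, or 0.30 ± 0.07 (edgeR adjusted p = 0.000471). AT5G02480 was at 0.19 ± 0.05. The most abundant, AT4G02450, was at -0.02 ± 0.05.

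The classes were also compared as parts of the library. Counts of the HSP70 class were 0.311% in non-green and 0.244% in green libraries, a ratio of 1.28, and those of the HSP90 class 0.0793% in non-green and 0.0566% in green libraries, a ratio of 1.40. HSP101 alone had a ratio of 1.54 and the DNAJ class of 1.08. These ratios rest on library totals, and scaling by total counts moved the median log2 fold change of all genes up by 0.0745. With the main scaling the DNAJ median was -0.04. For every 100 counts of the HSP70 class there were 16.5, 17.4 and 17.3 small HSP counts in the non-green libraries, against 8.60, 8.60 and 8.76 in the green ones. No library of one group reached the range of the other.

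**Figure D4:**
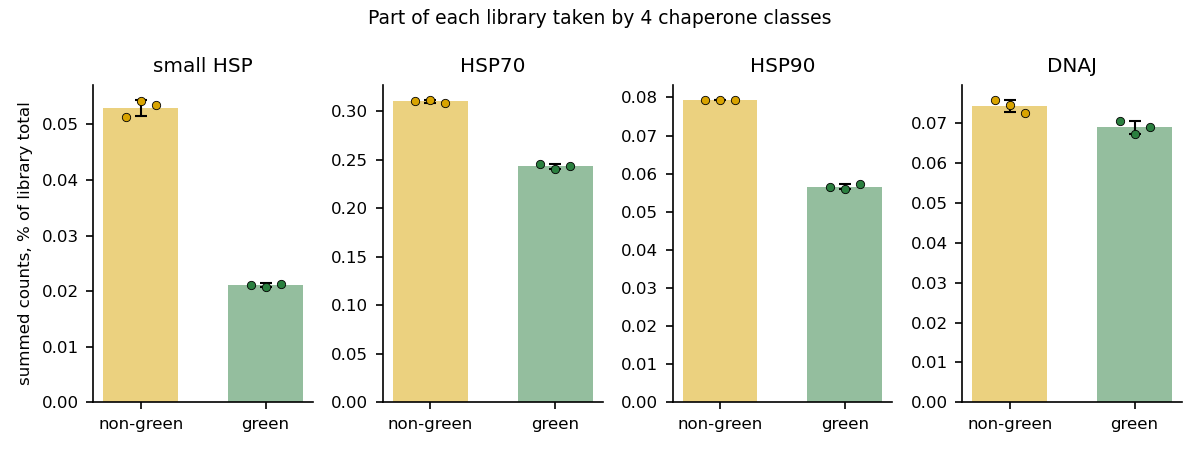
Summed counts of 4 classes as a percentage of all counts in a library, as bars at the group mean with SD (n = 3 libraries each) and 1 point per library, with a separate axis from 0 for each class. Library totals were used without further scaling. Small HSPs took 0.0530% of counts in non-green and 0.0211% in green libraries, a ratio of 2.52, against 1.28 for HSP70 (0.311% and 0.244%), 1.40 for HSP90 (0.0793% and 0.0566%) and 1.08 for DNAJ genes (0.0742% and 0.0689%).

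Heat shock factor genes outside the 115 were followed as a list. Of 15 tested 5 (33.3%) were higher and 0 lower, against 14.2% and 12.5% of all genes tested. At an unadjusted p under 0.05 1 was lower and by DESeq2 0, and the median log2 fold change was 0.37. HSFA9, the factor known for driving small HSP genes in maturing seeds, had 162, 188 and 153 counts in non-green and 79, 62 and 59 in green libraries, or 1.25 ± 0.16 (edgeR adjusted p = 5.53e-10). HSFA2, which prolongs the heat response, had 1179, 1141 and 1218 in non-green and 576, 644 and 712 in green libraries, or 0.79 ± 0.06. Neither gene overlapped between the groups. HSFA4A was at 1.38 ± 0.20. The factors HSF1 and HSF3, both of the A1 type that starts the heat response, were not called, at -0.12 ± 0.17 and -0.05 ± 0.10, and HSF4 was listed at 0 in all libraries.

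Among 12 co-chaperones and partners of the heat response 7 (58.3%) were higher and 1 (8.33%) lower, against 14.2% and 12.5% of all genes tested. Their median log2 fold change was 0.21. ROF2, an immunophilin induced by heat, had 471, 557 and 474 counts in non-green and 113, 85 and 116 in green libraries, or 2.18 ± 0.11 on the log2 scale (edgeR adjusted p = 4.31e-30). The groups were fully separate. HOP3, which links HSP70 to HSP90, was at 0.87 ± 0.06 and BAG6 at 0.74 ± 0.10. Of 13 further genes of ER folding 1 (7.69%) was higher and 6 (46.2%) lower, beside the same shares of all genes, with a median of -0.17. The calreticulin gene CRT1B was at -0.70 ± 0.06, the calnexin gene CNX1 at -0.34 ± 0.04 and CRT1A at -0.35 ± 0.04, the same sign as BIP1, BIP2 and ATERDJ3B. ATERDJ3A, also listed for ER folding but counted above with the DNAJ genes, had the opposite sign and was called higher at 0.22.

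Heat shock elements were counted on both strands in the 300 bases before each gene's transcript start, and a match is a description of letters only. A 2-unit element stood in 19.4% of 27443 protein-coding genes, in 7 of 19 small HSPs (5 of the 11 called higher), 4 of 16 HSP70 genes and 6 of 43 DNAJ genes. The 3-unit element, in either orientation (GAANNTTC extended by NNGAA, or TTCNNGAA extended by NNTTC, so each contains both 2-unit forms), stood in 0.485% of all genes and in 2 of 19 small HSPs, those printed above. Other motifs of seed promoters were also searched. CATGCA, the core of the RY motif, stood in 4 of 19 small HSPs and 10.3% of all genes. ACGTG, the core of abscisic acid response elements, stood in 6 of 19 and 25.6%. In the 300 bases before the start codon, CATGCA stood in 1 of 19 small HSPs and 8.17% of all genes. There ACGTG stood in 5 of 19 and 23.75%.

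Matches can also lie between transcript start and start codon, so the 300 bases before the start codon were searched as well, a window chosen after seeing the data. There a 2-unit element stood in 14 of 19 small HSPs, 10 of the 11 called higher (not AT2G19310, which has none in either window), 10 of 16 HSP70 genes and 22.8% of all genes. The 3-unit element stood in 0.747% of all genes. Outside the small HSPs it stood in 9 of 19 called-higher genes, in 0 of 10 called lower and in 2 of 45 not called. In the 300 bases before the transcript start, the same counts were 1 of 19, 0 of 10 and 0 of 45. Among small HSPs the 3-unit element stood before the start codon in 2 of 11 called higher, 1 of 3 tested and not called and 1 of 5 not tested. The transcript start of HSP101 lies 507 bases before its start codon, so some bases between the windows before each were not searched. In either window HSP101, called higher at 0.55, holds neither element. As examples of genes that carry it, with the whole match in capitals, the element read as follows in HSP70 (chr3:3993854-3993866, minus strand), HSP90.1 (chr5:21352262-21352274, plus strand) and AT2G20560 (chr2:8850004-8850016, minus strand), beside HSC70-1 (chr5:556562-556574, minus strand), which carries it with a smaller difference.
HSP70: GAACGTTCTCGAA
HSP90.1: GAACTTTCTGGAA
AT2G20560: TTCTCGAACGTTC
HSC70-1: GAACATTCTCGAA
These lay 177, 295, 201 and 240 bases before the start codon, in the order given. The other called-higher carriers outside the small HSPs were Hsp70-2, cpHsc70-1, cpHsc70-2, ATERDJ3A and BOB1, at 0.24, 0.20, 0.18, 0.22 and 0.30. Of the genes not called, AT3G09440 holds 2 such elements and AT4G28480 and HSP18.2 hold 1 each.

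Chlorophyll synthase (CHLG, AT3G51820) had 11, 6 and 9 counts in non-green and 46, 50 and 65 in green libraries, which goes with the labels. Seed markers (CRU3, SESA1, OLEO1 and ABI3) took 18.2% of counts in non-green and 20.1% in green libraries, with 1 of 4 higher and 2 lower. Beside the small HSPs, seed coat markers fell in 5 of 10 tested cases and rose in 1, and their summed level was 0.0956 to 0.0970% in non-green and 0.0982 to 0.105% in green libraries. Endosperm markers took 1.38 to 1.54% in non-green and 1.23 to 1.40% in green libraries, almost all of it from EPR1, which was not called; the others together took 0.000448 to 0.000511% in non-green and 0.000724 to 0.00106% in green libraries, with 2 of 4 tested, MEA and ALE1, lower. Silique wall markers took 0.00911 to 0.0106% in non-green and 0.00836 to 0.00894% in green libraries, with 2 of 5 tested, FIL and YAB3, higher and FUL at 0. Of all genes tested, 14.2% were called higher and 12.5% lower. The part of these tissues in the heat shock results was not tested.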

How the data were processed

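RNA-seq libraries of non-green and green seeds (3 each) were analysed. Read counts for each gene and library were deposited by the authors, together with RPKM, which the values show to be these counts divided by gene length and library total. Per the file headers, the deposited table also gives, for the authors' own comparison with settings that are not stated, a log2 fold change, p-values, a test score and a mean signal. Bowtie 0.12.2 and the build TAIR10 are named in the submitters' processing notes; they do not state the counting program, its use of strand or how reads matching several genes were treated. The table holds no coordinates; positions, exons and sequences come from RefSeq TAIR10.1, in which all 115 genes were matched.

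Total counts ran from 16438639 to 16745514 per library, which limits the precision of genes with few counts. In R 4.3.3, edgeR 4.0.16 (filterByExpr by group, 17239 genes left, TMM scaling) compared non-green with green by its quasi-likelihood test, two-sided, with Benjamini-Hochberg adjustment over all tested genes, and genes were called at an adjusted p under 0.05. The SE of a log2 fold change was taken as its size over the root of the F statistic. CPM used to judge overlap between groups are scaled by TMM. Counting intervals are exact (95%) and cover counting error only. The floor of 3 counts stands in for a group sum of 0 and leaves out counting error of the other group. Scripts were tested on simulated data. Alternatives were RLE and total count scaling, no filter, DESeq2 1.42.0, a replicate block and leaving out each library.

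The members, the gene lists and the tests were chosen with earlier results of these data known. Named were all tested small HSPs and, from each other class, up to 4 called genes with the smallest adjusted p, the first in the minority direction and the one with the highest mean RPKM; further members were named after their values were seen, so that called genes are accounted for. The window before the start codon and the 3-unit element were chosen after seeing the data.

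In the authors' deposited table, 95 of the 115 genes have an adjusted p, with 31 higher and 8 lower; 37 of the 40 genes called here were called there, all 37 with the same sign.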

Additional observations from a re-analysis of the deposited data

How the results depend on the processing

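The 11 small HSPs called higher kept their call under all 11 alternatives, with class medians of 1.18 to 1.27. Of the 40 heat shock genes called, 40 kept their call with RLE scaling, with no filter on low counts and with the replicate block, 38 with scaling by total counts, 37 with DESeq2 and 35 to 40 without single libraries. The replicate numbers were shared by both groups, but same-numbered libraries did not deviate together (r of -0.00166 to 0.0196). With the block 30 heat shock genes were higher and 10 lower, as without it, and no call of these genes changed. Over all genes the block gave 2469 higher and 2174 lower, against 2444 and 2149. Scaling by total counts moved the median of all genes by 0.0745 and the genes called lower to 1364, against 2149; 70.5% of calls were then higher, against 53.2%, and the 8 lower heat shock genes included 3 of the HSP70 class. DNAJ genes called higher numbered 2 to 5 without single libraries, against 4, with 2 without green replicate 3, where the DNAJ genes AT1G18700 (0.22, edgeR adjusted p = 0.0704) and AT5G01390 (0.21, 0.131) and the HSP20-like gene AT5G02480 (0.16, 0.0501) lost their call. HSBP lost its call with DESeq2 (adjusted p = 0.0686) and without non-green replicate 2 (0.219) or 3 (0.0832) or green replicate 1 (0.1000) or 2 (0.0820). AT2G42750 was called at 0.21 with scaling by total counts (edgeR adjusted p = 0.00384) and at 0.18 without green replicate 1 (0.0345). Among the 44 genes tracked no called gene changed sign, while AT4G02450, not called at -0.02, was at 0.05 with scaling by total counts and without non-green replicate 2; the causes of these changes were not tested. Small HSPs called higher numbered 14 with no filter and 13 with DESeq2, since scarce genes then entered. Depth limits the genes with fewer than about 10 counts a library.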

Other observations

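Small HSP genes were compact, with 11 of 19 annotated with a single exon and a median deposited length of 717.5 bases, against a median of 6 exons and 2352 bases in the HSP70 class and 3 exons and 1624.5 bases in the DNAJ class. Neighbouring heat shock genes did not always move alike. Hsp70-2 and HSC70-1, side by side on chromosome 5 with AT5G02480 next to them, had log2 fold changes of 0.24, 0.23 and 0.19, whereas Hsp70-15 and HSP91, side by side on chromosome 1, had 0.22 and -0.27. The DNAJ genes AT2G05230 and AT2G05250 have identical stretches of 50 coding bases throughout (100%) and held 4 and 1 counts in all non-green libraries and 8 and 7 in all green ones.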
